A study of Mus musculus with 157 samples.

Results

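The genes described here are 8 mRNAs of cholesterol synthesis and its control, Hmgcs1, Idi1, Fdps, Fdft1, Sqle, Lss, Cyp51 and Insig1. They were chosen by name and all 8 were found among the 19600 genes of the count table. Hmgcs1 (HMG-CoA synthase) makes the precursor of mevalonate. Idi1 (isopentenyl diphosphate isomerase) and Fdps (farnesyl diphosphate synthase) build the isoprenoid chains. Fdft1 (squalene synthase) and Sqle (squalene epoxidase) make and oxidise squalene. Lss (lanosterol synthase) closes the sterol rings and Cyp51 removes a methyl group from lanosterol. Insig1 is not an enzyme but the membrane protein that holds the SCAP and SREBP complex in the endoplasmic reticulum when sterols are plentiful.

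Cells make cholesterol from acetyl-CoA through the mevalonate pathway, which also supplies the prenyl groups of proteins and ubiquinone. When membrane sterols fall, SREBP2 is carried by SCAP to the Golgi, is cut there, and turns on the genes of synthesis and uptake together. When oxysterols rise, LXR turns on the genes of efflux. Proliferating lymphocytes need new membrane, and mitogens raise this programme.

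Splenic B cells of C57BL/6Babr mice received lipopolysaccharide (LPS) at 10 µg/ml for 48 h, or for 47 h where the inhibitor followed. Cells of the LPS group had nothing else. LPS+ET cells then had etoposide, a topoisomerase II poison that breaks DNA, at 20 µM for 4 h. LPS+ET+KU cells had KU55933, an inhibitor of the ATM kinase, at 10 µM for 1 h before that etoposide treatment. There was no group with the inhibitor alone. If LPS cells were collected at 48 h, the etoposide groups were longer in culture, and this cannot be told apart from etoposide. For another assay the study describes etoposide as given in the last 4 h. Cycloheximide-treated cytoplasm was spread on sucrose gradients, with monosomes in fractions 4 to 7, light polysomes in fractions 8 to 10 and heavy polysomes in fractions 11 to 16. Each treatment had 4 gradients of 13 fractions, and each fraction was a 3′ end library. A gradient is named here by its treatment and by the tag in its column names, LUL15 to LUL18. Each tag, called a pool here, was carried by 1 gradient of each treatment. The labels do not say what the tag stands for.

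The 12 gradients held 6404957 to 21449781 counts, and single libraries held 14724 to 4170688. In the LPS+ET gradient of pool LUL16 the heavy polysome libraries gave 30.4% of the counts, against 60.5% to 68.2% in the other 3 LPS+ET gradients. Values without that pool are therefore given beside results where they change a call of a member or the number of members called. The heavy polysome libraries gave 52.3% to 62.4% of the counts in LPS gradients and 37.6% to 55.5% in LPS+ET+KU gradients. A sum of counts over fractions weights each fraction by the depth of its library, so groups differ in this weighting. Cdkn1a, a p53 target used as a check that etoposide acted, rose from 26.9 ± 4.29 CPM (counts scaled so that every gradient has an equal total) in LPS to 722 ± 167 in LPS+ET (SD, n = 4). By edgeR this was 4.64 ± 0.29 on the log2 scale (SE), with an adjusted p of 5.28e-07. The 6 B cell markers summed to 2060 to 2720 CPM in LPS and 1560 to 2030 in LPS+ET, with 1790 to 2470 where the inhibitor was added, and 1 of the 6, Cd22, was called lower in LPS+ET. Plasma cell markers, 4 of 5 listed being in the table, spanned 217 to 412, 175 to 963 and 96.8 to 565 CPM in the same order, and 1 of these 4, Sdc1, was called higher in LPS+ET. Myeloid markers, 8 of 9 in the table, spanned 33.4 to 86.8, 47.6 to 167 and 32.9 to 125 CPM with none of 7 tested called by edgeR. T cell markers summed to at most 5.69 CPM, NK cell markers to at most 2.80 CPM and erythroid markers to at most 0.449 CPM in any gradient. The part of these markers in the results was not tested, and in such bulk samples fewer cells of a type and less RNA per cell cannot be told apart.

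The question put to each member was whether etoposide changed its amount on ribosomes, and whether the inhibitor changed it back. Counts of fractions 4 to 16 were summed for each gradient, and this sum is called ribosome-associated mRNA. All 8 members had a fold change below 0 after etoposide, and 3 of the 8, Hmgcs1, Idi1 and Sqle, were called lower at an adjusted p under 0.01. Of all 12755 genes tested, 4.81% were called lower and 12.7% in either direction. The median log2 fold change of the members was -0.99, beside 0.03 over all genes. Without pool LUL16, 5 of the 8 were called, and 2095 of 12854 genes. With the pool as a block in the fit, 6 of the 8 were called lower, when 26.7% of all genes were called. Equal weight for each fraction library gave 1 of the 8, when fewer of all genes were called as well. Leaving out single gradients gave 1 to 3 of the 8.

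**Figure D1:**
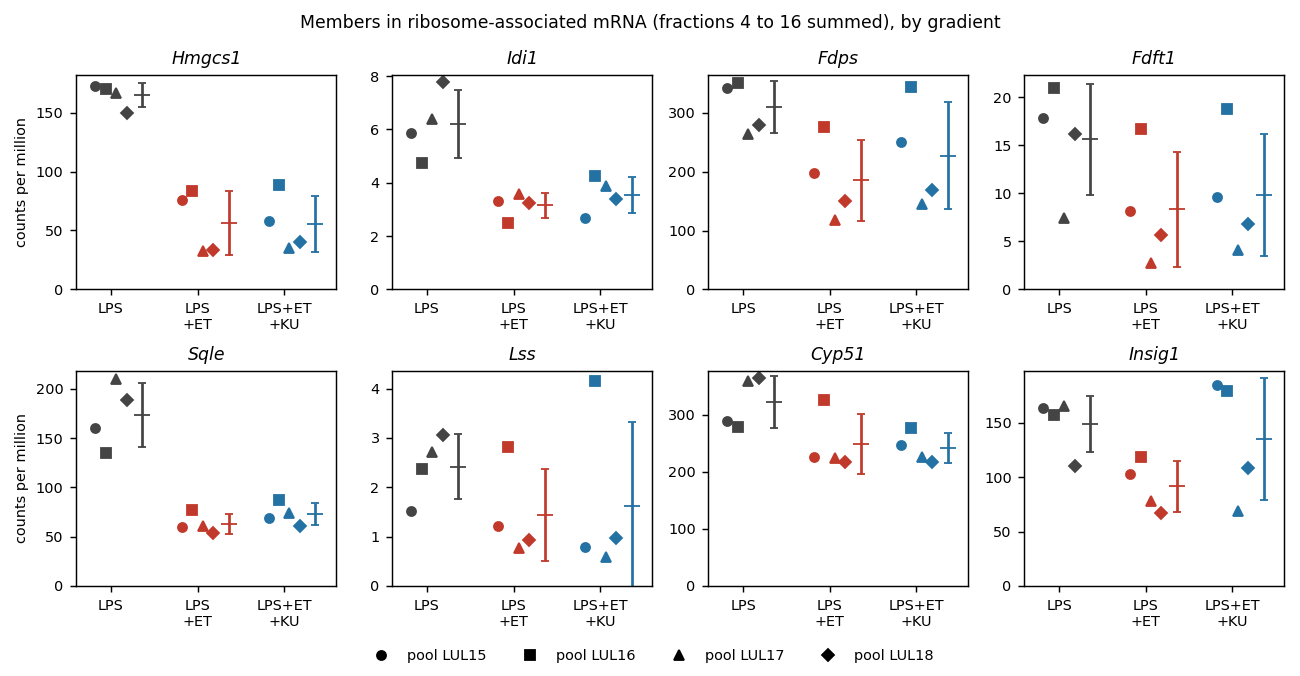
Ribosome-associated mRNA of the 8 members in CPM of the gradient (vertical axes, from 0), by treatment, with a marker shape for each pool and the mean ± SD of 4 gradients as a bar beside the points. For Hmgcs1, Idi1 and Sqle the 4 LPS gradients lie above all LPS+ET gradients, and for Fdps, Fdft1, Lss, Cyp51 and Insig1 the groups overlap.

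Hmgcs1, which commits acetyl units to the pathway, stood at 172, 170, 166 and 150 CPM in the LPS gradients, given in order from pool LUL15 to pool LUL18. In LPS+ET the values were 75.8, 83.8, 32.9 and 33.1 CPM in the same order. All 4 LPS gradients were above all LPS+ET gradients, and LPS+ET gradients of pools LUL15 and LUL16 were above those of LUL17 and LUL18. The log2 fold change was -1.68 ± 0.33 (SE, adjusted p = 0.00269), or 3.19 times lower. Without the LPS+ET gradient of pool LUL18 its adjusted p was 0.0110 and its fold change -1.51 on the log2 scale.

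Sqle, whose product is the first oxygenated intermediate of the sterol branch, fell with the smallest p of the members. Its values were 160, 135, 210 and 188 CPM in LPS and 59.8, 77.0, 60.9 and 53.7 CPM in LPS+ET. The highest LPS+ET gradient lay well below the lowest LPS gradient. The log2 fold change was -1.58 ± 0.19 (adjusted p = 7.26e-05), or 2.98 times lower, and it was called in each fit that left out a gradient, with adjusted p of 5.87e-05 to 5.40e-04.

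Idi1, which sets the balance of the isoprenoid building blocks, was a sparse mRNA with 16 to 102 counts in a gradient. It measured 5.87, 4.73, 6.40 and 7.80 CPM in LPS and 3.32, 2.498, 3.57 and 3.25 CPM in LPS+ET. The groups did not overlap, and the log2 fold change was -1.07 ± 0.24 (adjusted p = 0.00591). This call was lost in 7 of the 8 fits that left out a gradient, all but that without the LPS gradient of pool LUL16, with adjusted p of up to 0.0239. The fold change stayed between -1.18 and -0.94 in those fits. Groups that did not overlap, with all LPS+ET gradients lower, were found for these 3 of 8 members and for 9.08% of all genes tested.

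Fdps, the enzyme that makes the precursor of both squalene and the prenyl groups, measured 342, 351, 265 and 280 CPM in LPS and 197, 276, 118 and 150 CPM in LPS+ET. Within each pool the LPS+ET gradient was the lower, but the LPS+ET gradient of pool LUL16 reached the range of LPS. The log2 fold change was -0.85 ± 0.29 with an adjusted p of 0.0505. With the pool as a block the adjusted p was 1.78e-04, and without pool LUL16 it was 0.00388 with a fold change of -1.05.

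Insig1, the retention factor that is itself an SREBP target, measured 163, 157, 165 and 111 CPM in LPS and 103, 118, 78.4 and 66.8 CPM in LPS+ET. The lowest LPS gradient, of pool LUL18, lay inside the LPS+ET range. The log2 fold change was -0.82 ± 0.28 (adjusted p = 0.0479), and with the pool as a block the adjusted p was 0.00311.

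Fdft1, the step that commits farnesyl units to sterols, differed more between pools than between treatments. Its LPS gradients gave 17.8, 20.99, 7.48 and 16.2 CPM and its LPS+ET gradients 8.21, 16.7, 2.79 and 5.64 CPM, lower within each of the 4 pools. The log2 fold change of -1.06 ± 0.53 had an adjusted p of 0.178, and 2.30e-04 with the pool as a block.

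Cyp51 showed the smallest difference of the members, with 279 to 365 CPM in LPS and 217 to 327 CPM in LPS+ET. Its log2 fold change was -0.49 ± 0.19 (adjusted p = 0.0800). The highest LPS+ET value was that of pool LUL16, and without this pool the fold change was -0.71 with an adjusted p of 0.00657. Lss, with 7 to 89 counts in a gradient, measured 1.52 to 3.06 CPM in LPS and 0.776 to 2.81 CPM in LPS+ET, too few counts for a firm value. Its log2 fold change was -0.93 ± 0.61 (adjusted p = 0.320).

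The inhibitor group was then compared with etoposide alone. None of the 8 members was called by edgeR between LPS+ET+KU and LPS+ET, none had an unadjusted p under 0.05, as 2031 of the 12755 genes did, and none was called by DESeq2. Of all genes, 0.455% were called in this comparison, and 8.26% had groups that did not overlap, as no member did. The median log2 fold change of the members was 0.24, beside 0.04 over all genes. Hmgcs1 measured 58.2, 88.4, 35.4 and 40.4 CPM with the inhibitor, in the order of pools above, within the range of LPS+ET apart from the highest value. Its log2 fold change against LPS+ET was -0.01 ± 0.33. With equal weight for each fraction library the fold changes of Hmgcs1 and Cyp51 in this comparison were above 0, as given at the end. The part of library depth in this was not tested. Sqle measured 69.0, 86.8, 74.4 and 61.2 CPM, higher than LPS+ET within each of the 4 pools, by 0.21 ± 0.19 on the log2 scale (adjusted p = 0.648). Fdps measured 251, 345, 146 and 168 CPM, and Fdft1 9.65, 18.8, 4.14 and 6.84 CPM, both also higher than LPS+ET within each of the 4 pools. No member was called with the pool as a block either, where 6.36% of all genes were.

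Insig1 had the largest difference of the members between these treatments. It measured 185, 179, 68.6 and 108 CPM with the inhibitor, higher than LPS+ET in pools LUL15, LUL16 and LUL18 and lower in pool LUL17. The log2 fold change was 0.55 ± 0.27 (adjusted p = 0.360).

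Set against LPS, the inhibitor group again had a fold change below 0 for all 8 members, with a median of -0.71 beside 0.09 over all genes. LPS+ET and LPS+ET+KU were compared with the same LPS gradients, so the 2 comparisons are not independent. Hmgcs1 (-1.69 ± 0.33, adjusted p = 0.00323) and Sqle (-1.36 ± 0.19, adjusted p = 3.39e-04) were called, 2 of 8, where 4.42% of all genes were called lower and 10.7% in either direction. The call of Hmgcs1 was lost without the LPS+ET+KU gradient of pool LUL15, LUL17 or LUL18, at adjusted p of 0.0106 to 0.0136, while its fold change stayed between -2.02 and -1.54 in all 8 fits that left out a gradient. Idi1 measured 2.69 to 4.24 CPM, below all LPS gradients, at -0.90 ± 0.24 on the log2 scale (adjusted p = 0.0160, and 0.00379 with the pool as a block). The pool as a block raised the members called from 2 to 5, when 28.1% of all genes were called, and without pool LUL16 it was 4, and 1803 of 12854 genes. The 2 added without that pool were Idi1 (-1.09, adjusted p = 0.00733) and Lss (-1.72, adjusted p = 0.00771). Equal weight for each fraction library gave 1 member called, and leaving out single gradients gave 1 to 2. Groups without overlap, with the inhibitor group lower, were found for 4 of 8 members, Hmgcs1, Idi1, Sqle and Cyp51, and for 8.43% of all genes.

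Short motifs in promoters of the members, which the choice of genes did not use, are shown as a description. The fold changes of all members after etoposide had the same sign, although only Hmgcs1 and Idi1 of those with a promoter at hand were called. Whether the motifs bear on this was not tested. RefSeq promoters of GRCm38.p6, 250 bases before to 50 after a start, were at hand for 5 members, Cyp51, Insig1, Lss, Idi1 and Hmgcs1. The letters CCAAT, bound by NF-Y, were found on either strand in 5 of 5 and in 37.4% of all 32851 promoters. The letters CCGCCC, bound by Sp1, were found in 5 of 5 and in 35.7% of all promoters. The sterol regulatory element, searched as TCACNCCAC on both strands, was found in Hmgcs1 only, 1 of 5, and in 1.24% of all promoters. The motifs searched do not overlap one another in the windows below. Each line reads 5′ to 3′ on the gene's strand with the motif in capitals, and ATTGG is CCAAT on the opposite strand. The sterol regulatory element of Hmgcs1, 137 to 129 bases before the start at chr13:119690204-119690233, and the CCAAT box of each gene nearest its start, are:
Hmgcs1 sterol regulatory element: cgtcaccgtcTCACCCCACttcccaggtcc
Hmgcs1 at chr13:119690294-119690323 (+): tccccgcctctcATTGGctgaaagcggatc
Idi1 at chr13:8885576-8885605 (+): catggtccaaggtgccATTGGctggcgacc
Lss at chr10:76531531-76531560 (+): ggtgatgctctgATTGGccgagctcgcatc
Cyp51 at chr5:4104709-4104738 (-): cgctgtccgccaCCAATctggtcctgagat
Insig1 at chr5:28071184-28071213 (+): cgccctcctcccATTGGctccggcggcctc
These matches are a description of the letters, and binding was not measured here. Counted from the RefSeq start, the CCAAT box begins 45 bases before it in Hmgcs1, 14 in Idi1, 62 in Lss, 29 in Cyp51 and 216 in Insig1. The gene positions given next are those of GENCODE, whose starts differ, so that the windows of Idi1 and Cyp51 lie inside the annotated gene.

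The members lie on 6 chromosomes of GRCm38. Hmgcs1 is at chr13:119690379-119708260 (+) and Idi1 at chr13:8885501-8892451 (+). Fdps is at chr3:89093588-89101959 (-), Fdft1 at chr14:63145150-63179578 (-) and Sqle at chr15:59315077-59331192 (+). Lss is at chr10:76531588-76557138 (+), Cyp51 at chr5:4081145-4104746 (-) and Insig1 at chr5:28071363-28078662 (+). The main poly(A) site counted for each of the 8 members fell in or at the edge of an annotated untranslated region, by GENCODE M21.

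The fraction profile shows where on the gradient each mRNA sat. In LPS cells Hmgcs1, Sqle and Cyp51 rose late in the gradient, with their highest mean CPM in fraction 14 (463, 342 and 821 CPM). Fdps and Fdft1 had their highest mean in fraction 13 (604 and 28.4 CPM). Idi1, at 283 codons, and Lss had their highest means in fractions 16 and 15 (9.74 and 7.36 CPM), from few counts. Insig1, with the shortest coding sequence of the members at 259 codons, had its highest mean in fraction 10, at 294 ± 36.9 CPM, among light polysomes. Insig1 kept this position in all 3 treatments, where fraction 10 held 170 CPM after etoposide and 281 CPM after inhibitor and etoposide.

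**Figure D2:**
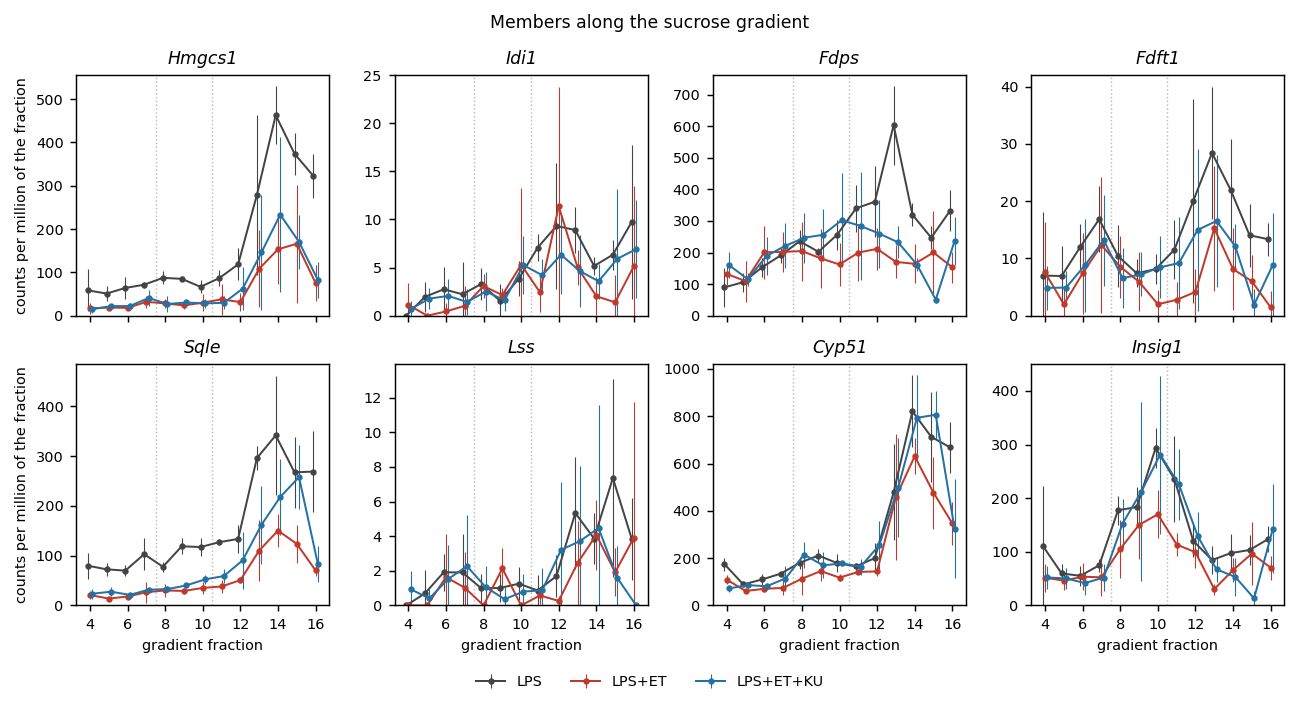
Mean CPM of each fraction library (vertical axes, from 0) against gradient fraction 4 to 16 for the 8 members, with SD of 4 gradients as error bars and dotted lines between monosomes, light and heavy polysomes. The Fdps peak of 604 CPM in fraction 13 of LPS gradients is absent from both etoposide groups, while mean Hmgcs1 and Sqle are lower along the whole gradient with their peak still in fractions 14 to 15. In fraction 15 Sqle with the inhibitor (258 ± 64.5 CPM) is close to LPS (267.5 ± 71.9).

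The heavy polysome share of a gene is the part of its CPM, summed over fractions 4 to 16, that lay in fractions 11 to 16, with each fraction library scaled to CPM. In LPS it was 77.3% ± 1.98 for Hmgcs1, 75.3% ± 5.07 for Idi1, 73.8% ± 1.11 for Cyp51, 73.2% ± 9.42 for Lss, 69.0% ± 3.15 for Sqle, 64.2% ± 2.98 for Fdps, 60.2% ± 5.64 for Fdft1 and 44.4% ± 4.41 for Insig1 (SD, n = 4). Neighbours in this order from Hmgcs1 to Sqle differed by less than the larger of their SDs, as did Fdps and Fdft1. Longer coding sequences hold more ribosomes, and the median share over genes averaging at least 100 counts rose from 35.4% at up to 200 codons to 71.4% above 1200 codons. Beside genes whose coding length was within 20% of their own, Hmgcs1 (520 codons) had a higher share than 97.0% of 1709 genes, Idi1 (283 codons) than 98.1% of 1272 genes, and Cyp51 (503 codons) than 91.7% of 1712 genes. Lss (733 codons) had a higher share than 83.2% of 1306 such genes, and Sqle (572 codons) than 78.6% of 1617. Fdps (353 codons) had a higher share than 77.2% of 1638 such genes. Insig1 had a higher share than 33.1% of 1139 such genes, and Fdft1 (416 codons) than 62.1% of 1742. The genes of like length averaged at least 100 counts, which Idi1 (16 to 102 counts in a gradient) and Lss (7 to 89) did not.

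**Figure D3:**
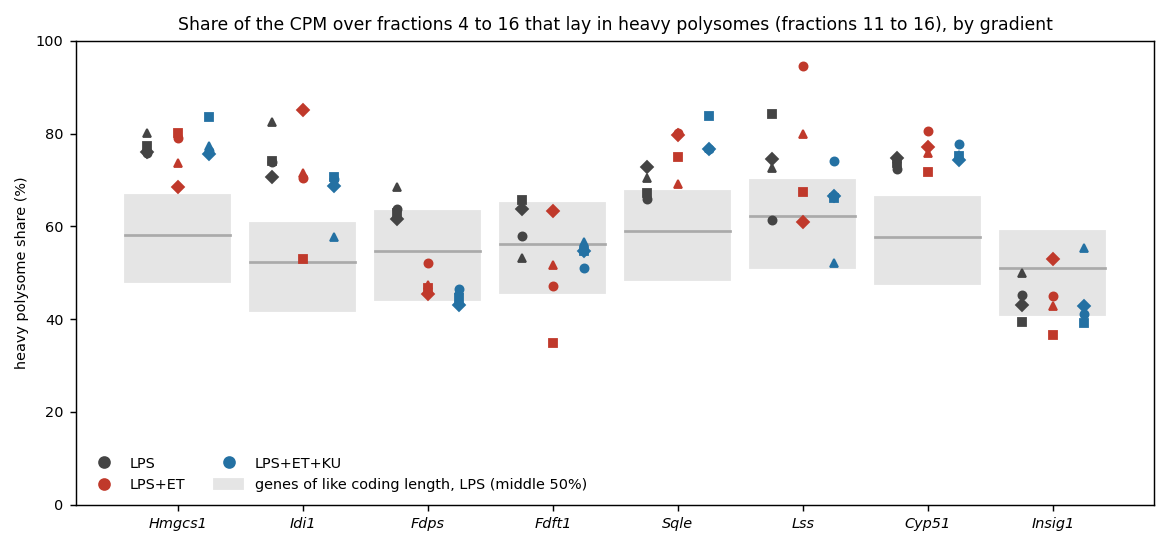
Heavy polysome share in percent (vertical axis) of the 8 members in each gradient, coloured by treatment, with a marker shape for each pool (circle LUL15, square LUL16, triangle LUL17, diamond LUL18). Grey boxes hold the middle 50% of genes of like coding length in LPS, with their median as a line, and Fdps drops from 61.6% to 68.4% in LPS to 43.0% to 52.0% in the etoposide groups.

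The heavy share of Fdps was lower in all gradients of both etoposide groups than in LPS. It was 63.8%, 62.9%, 68.4% and 61.6% in LPS. In LPS+ET it was 52.0%, 46.8%, 47.3% and 45.5%, and with the inhibitor 46.6%, 44.5%, 46.3% and 43.0%. In log2 odds the difference was -0.97 ± 0.17 for LPS+ET (limma adjusted p = 0.0150, short of the threshold) and -1.13 ± 0.17 for LPS+ET+KU (adjusted p = 0.00615). How many of all genes had groups without overlap in heavy share was not counted, so nothing is read from such a separation. Idi1, below the count minimum of this test, also lay lower with the inhibitor (57.8% to 70.7%) than in LPS (70.7% to 82.5%), though the groups meet at the digits printed. None of the 6 members tested was called in LPS+ET against LPS by limma, and 0.338% of all 8000 genes were called. At an unadjusted p under 0.05 were 3 of the 6, and 1657 of the 8000 genes. Fdps alone of the 6 was called in LPS+ET+KU against LPS, where 0.875% of genes were. That call was lost in each of the 8 fits that left out a gradient, at adjusted p of 0.0136 to 0.0264, with the difference between -1.18 and -1.04, and without pool LUL16 (adjusted p = 0.0309). From counts as deposited, without scaling of fractions, the Fdps share spread from 27.2% to 70.6% within LPS+ET and the adjusted p was 0.464 for LPS+ET+KU against LPS.

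All single fractions were also fitted with a term for each gradient, testing whether treatments differed in the shape of the profile. The units of this test were single-fraction libraries. The 13 fractions of a gradient are not independent samples, so the p-values of this test can be too small. Fdps was the only member of 7 tested that was called in LPS+ET against LPS (edgeR adjusted p = 1.37e-06), where 5.72% of genes were called, and it was called in each of the 8 fits that left out a gradient, at adjusted p of up to 0.00100. In fraction 13, Fdps measured 604 ± 125 CPM in LPS, against 170 ± 52.1 after etoposide alone and 232 ± 50.4 after inhibitor and etoposide. In the monosome fractions, the difference of Fdps counts in LPS+ET was 0.17 ± 0.21 on the log2 scale (adjusted p = 0.615), beside -1.16 ± 0.31 in heavy polysomes (adjusted p = 0.0181, and 1.41e-04 with the pool as a block).

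Against LPS+ET, the profile with the inhibitor was called for 2 members, Fdps (adjusted p = 4.14e-05) and Insig1 (adjusted p = 6.23e-05), where 3.63% of genes were called. In fraction 10 Fdps measured 303 ± 149 CPM with the inhibitor and 162 ± 69.5 without, and in fraction 15 it measured 50.8 ± 12.1 and 200 ± 131. Insig1 measured 226 ± 66.8 CPM with the inhibitor and 114 ± 22.2 without in fraction 11, and 13.2 ± 13.6 and 96.7 ± 59.0 in fraction 15. Values with the inhibitor were thus higher about the boundary of light and heavy polysomes and lower in fraction 15 for both. In fraction 16 they were again the higher for both. Fdps measured 236 ± 75.3 CPM there with the inhibitor and 153 ± 48.8 without, and Insig1 143 ± 83.0 and 70.4 ± 22.2. The call of Fdps was lost when the LPS+ET gradient from pool LUL15 was left out (adjusted p = 0.0266) or the LPS+ET+KU gradient of pool LUL16 (adjusted p = 0.0125), and that of Insig1 in the former case (adjusted p = 0.0128). Without a term for each gradient the adjusted p of Fdps was 0.0276. For the heavy share limma called none of the 6 members tested between these treatments, with 0% of genes called. At an unadjusted p under 0.05 were 0 of the 6, and 684 of 8000 genes. Against LPS, 3 members were called for the shape of the profile in LPS+ET+KU, Fdps (adjusted p = 1.27e-11), Insig1 (adjusted p = 0.00158) and Sqle (adjusted p = 0.00846), where 11% of genes were. Fdps was called in all 8 fits that left out a gradient, Insig1 in all but those without the LPS gradient of pool LUL15 (adjusted p = 0.0188) or the LPS+ET+KU gradient of pool LUL18 (adjusted p = 0.0201), and Sqle in 3 of the 8, with adjusted p of up to 0.158. Without a term for each gradient Fdps alone was called.

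The heavy share of Sqle was 65.8% to 72.7% in LPS and 69.1% to 80.2% in LPS+ET, then 76.7% to 83.7% with the inhibitor. The inhibitor group lay above all LPS gradients. How often this happened over all genes was not counted, so nothing is read from it. The limma adjusted p was 0.0943, and 0.228 for LPS+ET, so neither was called. From counts as deposited it was 76.2% ± 5.92 in LPS cells, 82.0% ± 7.23 after etoposide and 75.3% ± 3.85 with the inhibitor, so that the inhibitor group was no longer the higher. Its fall after etoposide was largest in monosomes, where the log2 fold change was -2.08 ± 0.23, and was -1.81 ± 0.20 in light and -1.26 ± 0.33 in heavy polysomes. These differences between regions of the gradient were not tested other than by the profile shape, for which the adjusted p in LPS+ET was 0.203. The heavy share of Hmgcs1 stayed at 68.5% to 83.6% over all 12 gradients, overlapping between treatments, and that of Cyp51 at 71.7% to 80.6%.

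**Figure D4:**
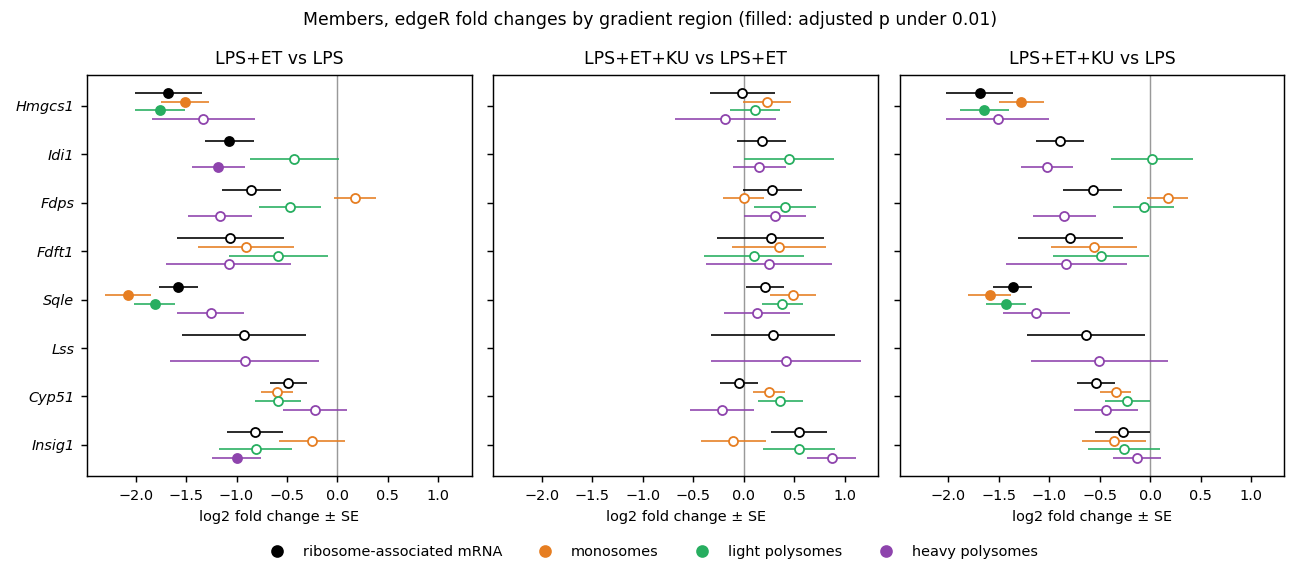
Log2 fold change ± SE (horizontal axes) of the 8 members in ribosome-associated mRNA and in the 3 regions of the gradient, with a panel for each comparison and filled symbols for an adjusted p under 0.01. After etoposide Hmgcs1 and Sqle have filled symbols at -1.51 to -2.08 in monosomes and light polysomes, Fdps lies at 0.17 in monosomes and -1.16 in heavy polysomes, and the middle panel, for the inhibitor against etoposide alone, has no filled symbol.

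Taken by region, etoposide lowered Hmgcs1 and Sqle in monosomes, 2 of 6 members tested, with adjusted p of 5.57e-04 and 4.69e-05, where 9.52% of genes were called. The pool block added Cyp51 (adjusted p = 0.00111), 3 of 6, and 24.6% of all genes were called. In light polysomes Hmgcs1 and Sqle, 2 of 7, were called at -1.76 ± 0.25 and -1.81 ± 0.20, where 10.6% of genes were. With the pool as a block 5 of 7 were called there, with Fdps, Cyp51 and Insig1 added, and 25% of all genes. Without pool LUL16 it was 3 of 7, and 1148 of 10003 genes. In heavy polysomes 2 of 8 were called, Idi1 (-1.18 ± 0.26, adjusted p = 0.00566) and Insig1 (-1.0 ± 0.24, adjusted p = 0.00931), where 9.69% of genes were. Both lay close to the threshold, since the call of Idi1 was lost in 7 of 8 fits that left out a gradient and that of Insig1 in all 8, with fold changes of -1.26 to -1.09 and -1.10 to -0.90. With the pool as a block 6 of 8 were called in heavy polysomes, and 20.6% of all genes. Without pool LUL16 it was also 6 of 8, and 1722 of 11431 genes. Equal weight for each fraction library gave fewer members called in monosomes and in heavy polysomes, as given at the end. Insig1 in heavy polysomes had the smallest unadjusted p of the members between LPS+ET+KU and LPS+ET, at 0.87 ± 0.24 on the log2 scale and an adjusted p of 0.0793.

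For the inhibitor against etoposide alone edgeR called no member in monosomes (0.213% of genes called), none in light polysomes (0.292%) and none in heavy polysomes (0.572%), and DESeq2 called none in any region. At an unadjusted p under 0.05 were 1 of 6 members and 1204 of 8932 genes in monosomes, 0 of 7 and 1515 of 9922 in light polysomes, and 1 of 8 and 1691 of 11368 in heavy polysomes. All 7 members tested in light polysomes had a fold change above 0, with a median of 0.38 beside 0.01 over all genes. Against LPS, the inhibitor group had Hmgcs1 and Sqle called lower in monosomes (-1.28 ± 0.22 and -1.59 ± 0.21, with 5.96% of genes called) and in light polysomes (-1.65 ± 0.24 and -1.43 ± 0.20, with 7.13%). In heavy polysomes edgeR called none of the 8, with 7.95% of genes called, and DESeq2 called 2. At an unadjusted p under 0.05 were 4 of the 8, and 3745 of 11368 genes. There the pool as a block gave 5 of 8, when 21.4% of all genes were called, and leaving out pool LUL16 gave 5 of 8, and 1534 of 11431 genes.

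The study's own form of test, treatment and its interaction with fraction against fraction alone, takes single-fraction libraries as its units, and the 13 fractions of a gradient are not independent samples. By this test 6 of 7 members were called in LPS+ET against LPS, all but Idi1 (adjusted p = 0.0282), where 31% of genes were called. Between LPS+ET+KU and LPS+ET 2 of 7 were called, Fdps (adjusted p = 0.00299) and Insig1 (adjusted p = 0.00151), where 8.01% were. Leaving out single gradients, Fdps was called in 2 and Insig1 in 4 of the 8 fits. Under the pool block the adjusted p was 1.08e-06 for Fdps and 2.11e-05 for Insig1, and 1919 of 10472 genes were called. In LPS+ET+KU against LPS 4 of 7 were called, Hmgcs1, Fdps, Sqle and Insig1, where 32.7% were. The block added Idi1 in LPS+ET against LPS (adjusted p = 0.00476, 7 of 7, with 4315 of 10360 genes called) and Fdft1 in LPS+ET+KU against LPS (adjusted p = 0.00199, 5 of 7, with 4847 of 10306).

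Other genes of the pathway were taken from lists by name, and their counts stand beside the 12.7% of all genes called by edgeR after etoposide, or 26.7% with the pool as a block. Of 14 other sterol synthesis genes tested, 13 had a fold change below 0 after etoposide, 3 were called lower and none higher, and the median was -0.68. The 3 were Sc4mol, the methyl sterol oxidase now named Msmo1, at 132 ± 11.5 CPM in LPS and 75.7 ± 9.97 in LPS+ET (-0.92 ± 0.18, adjusted p = 0.00275), Nsdhl, a sterol dehydrogenase, at 84.1 ± 20.9 and 45.8 ± 4.202 CPM (-0.99 ± 0.21, adjusted p = 0.00469), and Sc5d, the sterol C5 desaturase, at 105 ± 15.3 and 51.5 ± 9.95 CPM (-1.15 ± 0.24, adjusted p = 0.00360). With the pool as a block 8 of the 14 were called lower. Of 10 fatty acid synthesis genes tested, 2 were called lower, Fasn, the fatty acid synthase (-1.32 ± 0.28, adjusted p = 0.00366), and Elovl6, a fatty acid elongase (-1.27 ± 0.24, adjusted p = 0.00192), with a list median of -0.58. Of 8 genes of the non-sterol branches 1 was called lower, Ggps1, which makes geranylgeranyl diphosphate, at 11.7 ± 0.668 CPM in LPS and 7.17 ± 1.25 in LPS+ET, with 12.2 ± 0.654 after both etoposide and the inhibitor. Its log2 fold change was -0.81 ± 0.17 after etoposide (adjusted p = 0.00386), and 0.76 ± 0.17 for the inhibitor against etoposide alone (adjusted p = 0.0378, and 0.00483 with the pool as a block). The median of that list was -0.05.

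**Figure D5:**
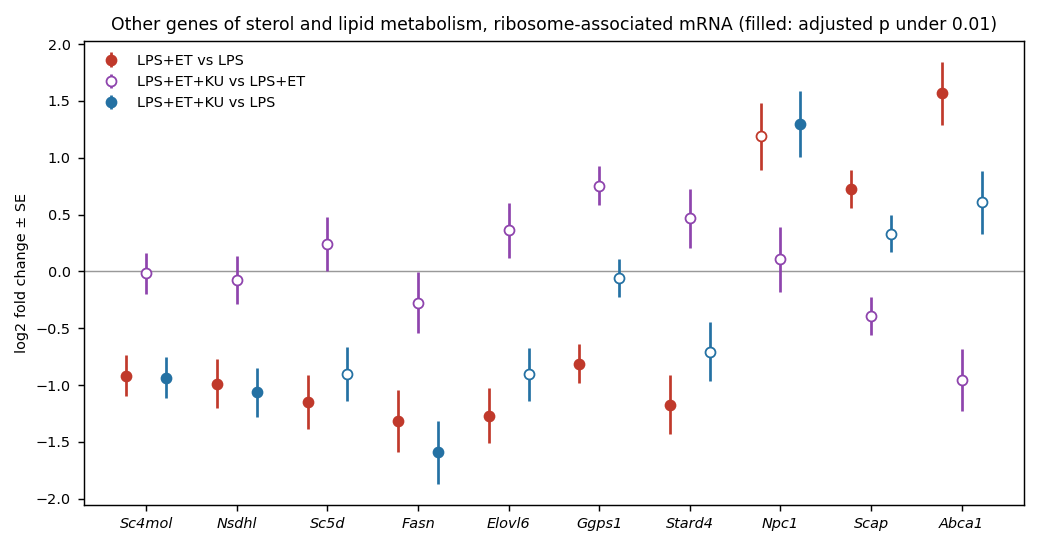
Log2 fold change ± SE (vertical axis) in ribosome-associated mRNA of 10 listed genes that are not members, for the 3 comparisons, with filled symbols for an adjusted p under 0.01. Sc4mol, Nsdhl, Sc5d, Fasn, Elovl6, Ggps1 and Stard4 lie below 0 after etoposide, from -0.81 to -1.32, and Npc1, Scap and Abca1 above 0, from 0.73 to 1.57.

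Abca1, Scap and Npc1, which act in sterol efflux, SREBP control and lysosomal export, had fold changes above 0 after etoposide. Abca1, the cholesterol efflux pump and an LXR target, was called higher after etoposide, 1 of 7 tested in its list, at 2.08 ± 0.321 CPM in LPS, 6.66 ± 2.30 after etoposide and 3.48 ± 1.09 with the inhibitor before it. Its log2 fold change was 1.57 ± 0.28 (adjusted p = 0.00122), and -0.96 ± 0.27 for the inhibitor against etoposide alone (adjusted p = 0.0836, and 0.00765 with the pool as a block). Abca1 had 22 to 105 counts in a gradient. Of 6 genes of SREBP control, 1 was called, Scap, the SREBP escort, which rose by 0.73 ± 0.17 (adjusted p = 0.00667), and the list median was 0.38. Srebf2, which encodes SREBP2, stood at -0.83 ± 0.26 on the log2 scale (adjusted p = 0.0336, and 0.00366 with the pool as a block). It is named here although its call falls outside the rule for named genes. Of 11 uptake and transport genes tested, 2 were called lower after etoposide and none higher, with a list median of 0.13. Stard4, a sterol carrier, had -1.17 ± 0.26 on the log2 scale (adjusted p = 0.00556). Npc1, which exports cholesterol from lysosomes, stood at 1.19 ± 0.29 on that scale after etoposide (adjusted p = 0.0103) and was called in LPS+ET+KU against LPS (1.30 ± 0.29, adjusted p = 0.00710). No listed gene was called by edgeR between LPS+ET+KU and LPS+ET without the pool as a block. With the block Ggps1, Abca1 and 1 gene of fatty acid synthesis were called, where 6.36% of all genes were.

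The members varied together over the 12 gradients, as a description with no test. The Pearson correlation of log2 CPM between pairs of members was 0.257 to 0.95 with a median of 0.71 over 28 pairs, and the gradients share treatments and pools. Among 7994 other genes averaging at least 100 counts, those most like the members' mean were Kif21b (r = 0.983), Aacs (0.977), Cd22 (0.977), Gm12678 (0.972), Stard4 (0.968), Rdh11 (0.967), Lmo2 (0.966) and Arhgap25 (0.966). Stard4 was the only listed gene among these 8. Aacs, which activates acetoacetate for sterol and fatty acid synthesis, measured 29.4 CPM in LPS on average, 14.5 after etoposide and 15.4 with the inhibitor as well.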

How the data were processed

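Ribosome-associated RNA of B cells was measured in 157 libraries, of which 156 (12 gradients of 13 fractions) were compared. The authors made 3′ end libraries from equal RNA concentrations of each fraction, so a fraction's total does not give its mRNA content, removed PCR duplicates by random bases, mapped tags to GRCm38 and deposited counts per Ensembl gene at poly(A) sites, without normalization. The aligner of these libraries is not given in the sources used here; the submitters' processing notes also name TopHat2 2.0.12 and DESeq2 1.6.3. Of the columns, 79 matched 1 labelled sample and 78 a treatment and fraction only. The study describes 4 biological replicates per treatment.

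Counts were summed by gradient and region and tested with edgeR 4.0.16 (TMM, filterByExpr, quasi-likelihood F-test, all 12 gradients, treatment as the term), two-sided, with Benjamini-Hochberg adjustment over all genes and calls under 0.01, as in the study. Heavy shares (mean of 100 or more counts, 1 CPM added) were tested with limma 3.58.1, and profiles with edgeR on single-fraction libraries. DESeq2 1.42.0 was an alternative. The scripts were tested on simulated data with known changes. Pools paired the gradients: deviations from treatment means correlated at 0.353 to 0.894 in all 12 same-pool pairs and at a median of -0.322 in 36 others. Deviations within a treatment sum to 0, so a negative median follows from positive same-pool values and is not separate evidence. The pairing rests on the column names. Leaving out each gradient, other scalings, filters and thresholds were tried, and leaving out pool LUL16 was added after the data were seen. CPM are values computed here. Coding lengths and positions came from GENCODE M21 and promoters from RefSeq, both of this assembly, with windows 1-based.

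The members and lists were chosen with earlier results of these data known. Named genes were the members, listed genes called in any comparison, the 8 most like the members, and Cdkn1a; Sdc1 was named after its values were seen. 1 called gene of the uptake list is not reported here. Computations used R 4.3.3, Python 3.11.15, pandas 2.3.3 and numpy 2.4.6.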

Additional observations from a re-analysis of the deposited data

Results flagged for a closer look

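In groups of 4 gradients, a value was picked out where its gap to the nearest of the others, as a share of the group's range, exceeded Dixon's 95% critical value. This happened in 5 of 48 groups examined, and chance does so in about 1 of 20 groups. Lss measured 4.15 CPM in the LPS+ET+KU gradient of pool LUL16, against 0.591 to 0.977 in the other 3. Cyp51 measured 327 CPM in the LPS+ET gradient of pool LUL16, against 217 to 227. Insig1 measured 111 CPM in the LPS gradient of pool LUL18, against 157 to 165. The heavy share of Idi1 was 57.8% in the LPS+ET+KU gradient of pool LUL17, against 68.6% to 70.7%, and that of Sqle was 83.7% in the LPS+ET+KU gradient of pool LUL16, against 76.7% to 76.9%. What set these gradients apart was not tested.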

How the results depend on the processing

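Counts of members called are given below as values under an alternative beside the value reported, for adjusted p under 0.01 unless stated. In ribosome-associated mRNA, LPS+ET against LPS (3 called), the pool as a replicate block gave 6, equal weight per fraction gave 1, leaving out pool LUL16 gave 5, and leaving out single gradients gave 1 to 3. The genes called of all tested moved as well, from 1618 to 3403, 1042 and 2095 under the first 3. In LPS+ET+KU against LPS (2 called) the same gave 5, 1, 4 and 1 to 2. In monosomes the block gave 3 for LPS+ET against LPS, and equal weight per fraction gave 1 for both comparisons with LPS (2 called). In light polysomes the block gave 5 and leaving out pool LUL16 gave 3 for LPS+ET against LPS (2 called).

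In heavy polysomes, LPS+ET against LPS (2 called), a threshold of 0.05, DESeq2 and no filter on low counts gave 4 each, RLE scaling, the 8 gradients compared alone and equal weight gave 1 each, the block and leaving out pool LUL16 gave 6 each, and leaving out single gradients gave 0 to 4. In LPS+ET+KU against LPS (0 called) a threshold of 0.05 and DESeq2 gave 2 each, the block and leaving out pool LUL16 gave 5 each, and single gradients 0 to 2. For the heavy share a threshold of 0.05 gave 1 in LPS+ET against LPS (0 called). In LPS+ET+KU against LPS (1 called) counts as deposited, a minimum mean of 20 counts, leaving out pool LUL16 and each single gradient gave 0.

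For the whole profile, leaving out single gradients gave 0 to 2 in LPS+ET+KU against LPS+ET (2 called) and 3 to 6 in LPS+ET+KU against LPS (4 called). For profile shape, no term per gradient gave 1 in LPS+ET+KU against LPS+ET (2 called) and 1 in LPS+ET+KU against LPS (3 called), and single gradients 0 to 2 and 1 to 4. Of 297 counts computed under alternatives, 239 were within 1.5 times the reported count. For the whole profile the block gave 7 in LPS+ET against LPS (6 called) and 5 in LPS+ET+KU against LPS, and it changed no other count for which it was fitted. The causes were not tested.

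In LPS+ET+KU against LPS+ET, where no member was called, 15 of the log2 fold changes in ribosome-associated mRNA changed sign. For Hmgcs1 (-0.01) the block gave 0.0062, no filter 0.024, equal weight 0.32, and leaving out single gradients -0.33 to 0.27. For Cyp51 (-0.05) equal weight gave 0.37, leaving out pool LUL16 0.054, and single gradients -0.12 to 0.13. For Fdft1 (0.27) single gradients gave -0.27 to 0.87. For Lss (0.29) leaving out pool LUL16 gave -0.29, and single gradients -0.78 to 0.81. In both comparisons with LPS no member's fold change in ribosome-associated mRNA changed sign under any alternative run. Idi1 with 16 to 102 and Lss with 7 to 89 counts in a gradient limit what can be said of them.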
